A study of Mus musculus with 4 samples.

Results

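Aminoacyl-tRNA synthetases were followed as a gene group across 4 arrays of mouse 3D-retinas. The group held 36 genes chosen by name. Genes named with a final 2 were taken as the mitochondrial enzymes (16 genes), and the others as the cytosolic enzymes or enzymes shared by both compartments (20 genes). All 36 names were on the array, among 35715 gene names in all. Of these genes 35 were well above background on at least 1 array, as were 22817 of all names. All 20 cytosolic genes and 15 of 16 mitochondrial genes were measured, and Nars2, for mitochondrial asparagine, was not well above background on any array.

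The 3D-retinas were grown from induced pluripotent stem cells of Nrl-GFP mice, in which the rod gene Nrl drives a green fluorescent reporter. Treatment began on day 23 of differentiation, and RNA was taken on day 25. The 4 groups were ethanol vehicle, 4-hydroxytamoxifen alone (4-OHT, which the liver makes from the breast cancer drug tamoxifen and which binds estrogen receptors), and 4-OHT combined with either vitamin E, a lipid-soluble antioxidant, or lutein, a carotenoid found in the macula. The dose of 4-OHT was 5 µM in all 3 treated groups, that of vitamin E 400 µM and that of lutein 200 nM. RNA of 24 3D-retinas, all of the Nrl-GFP background, was pooled into the 1 array of a group. None of the 4 arrays had a supplement without 4-OHT. Since a group had a single array, differences are given as sizes with neither a replicate check nor a p-value.

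Aminoacyl-tRNA synthetases join each amino acid to its transfer RNA (tRNA), the step that sets which amino acid a codon calls for. Most mammalian cells keep separate nuclear genes for the cytosolic and the mitochondrial enzyme of an amino acid. Glycine and lysine are exceptions, where Gars and Kars each serve both compartments, and glutamine is charged in mitochondria by an indirect route. Several cytosolic enzymes sit together in the multi-synthetase complex, held by the scaffold proteins AIMP1, AIMP2 and AIMP3. When the initiation factor eIF2 is phosphorylated in the integrated stress response, the transcription factor ATF4 is made and is known to raise genes for amino acid import, synthesis and tRNA charging.

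Signal is given as multiples of the 75th percentile of an array's gene spots, and a difference as log2 of the ratio of 2 arrays on that scale, so that 1 is 2-fold. Levels of different genes come from different probes and were not compared. For 399 probes printed 10 times per array, differences between arrays had a spot SD of 0.16 to 0.17 on the log2 scale, which covers spot noise only and not variation between cultures. The share of gene spots well above background was 51.3% to 54.5% per array, and no spot was saturated. Scaling on external spike-in probes instead moved the median of all genes by -0.14 for 4-OHT against vehicle, by 0.21 for vitamin E with 4-OHT against 4-OHT, by 0.11 for lutein with 4-OHT against 4-OHT and by 0.11 for vitamin E against lutein. With it, the share of 2-fold genes that were higher went from 71.0% to 55.0% for 4-OHT against vehicle and from 14.4% to 33.3% for vitamin E with 4-OHT against 4-OHT.

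In the 3D-retinas given 4-OHT alone, set against vehicle to show the response to the drug, cytosolic synthetase genes fell into a higher set and a set near vehicle, while mitochondrial synthetase genes lay near or somewhat below vehicle. The median log2 difference was 0.70 over the 20 cytosolic genes and -0.17 over the 15 mitochondrial genes, a contrast of 0.87 between the medians. All genes measured had a median of -0.06 and protein-coding genes one of -0.13, so the mitochondrial median lay close to that of protein-coding genes.

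With 4-OHT, 5 of 20 cytosolic genes were 2-fold higher or more, where 7.74% of all genes measured and 5.73% of protein-coding genes were, and 0 were 2-fold lower, where 3.17% of all genes were. At 1.5-fold, 11 of 20 were higher, against 15.1% of all genes, and Qars alone was lower, against 13.5%. The same 11 genes were higher by more than 2 spot SDs (a log2 difference of 0.35), as were 23.0% of all genes.

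**Figure D1:**
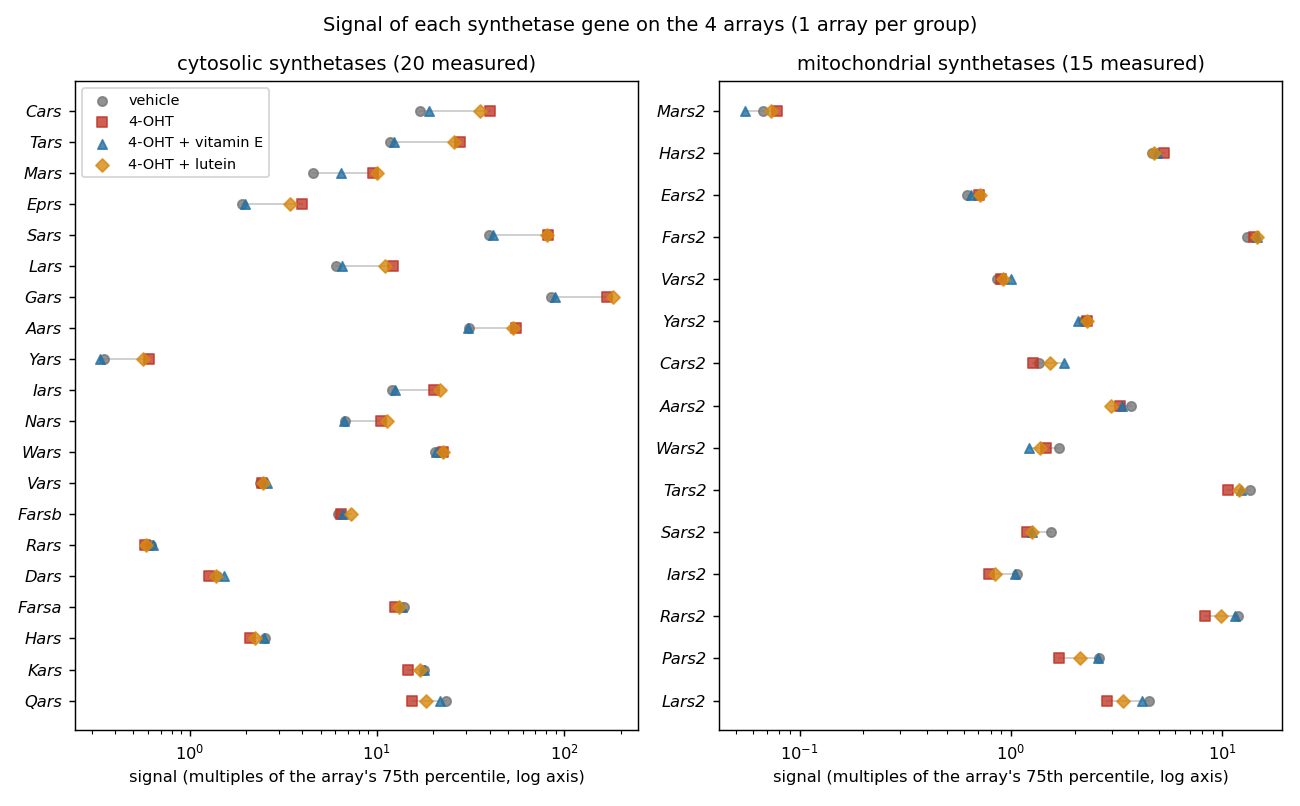
Signal of each measured synthetase gene (rows, ordered by the 4-OHT difference) on a log axis in multiples of the array's 75th percentile, with 1 point per array. From Cars down to Nars the 4-OHT and lutein points lie to the right of the vehicle and vitamin E points, and from Wars down to Qars and in the mitochondrial panel the 4 points lie closer together.

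Cars, the cysteine enzyme, had a signal of 16.9 on the vehicle array, 40.0 with 4-OHT, 19.0 with 4-OHT and vitamin E and 35.6 with 4-OHT and lutein. Its log2 difference of 1.24 between 4-OHT and vehicle was shared with Tars, the threonine enzyme, at 11.7, 27.6, 12.3 and 25.8 on the 4 arrays in the same order. In both genes the 4-OHT and lutein arrays were high and the vehicle and vitamin E arrays low. The Cars probe lies at chr7:150743615-150743674 and the Tars probe at chr15:11313527-11313586 of the mm9 build, both on the minus strand. Whether they lie in coding or untranslated exons was not analysed here.

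Sars, which charges serine tRNA and also supplies the first step toward selenocysteine, read 39.9, 81.9, 41.8 and 81.1 on the vehicle, 4-OHT, vitamin E and lutein arrays, a log2 difference of 1.04 for 4-OHT. Gars, the glycine enzyme of both compartments, read 85.0, 169, 88.8 and 181, a difference of 0.99 that was just short of 2-fold. Its lutein array was the highest of the 4. Aars, the alanine enzyme, read 30.9, 55.0, 30.6 and 53.2, a difference of 0.83. Nars, the asparagine enzyme, read 6.74, 10.6, 6.68 and 11.4, a difference of 0.65. Yars, the tyrosine enzyme, read 0.351, 0.603, 0.334 and 0.561, a difference of 0.78. In all of these genes both the 4-OHT and the lutein array lay above both other arrays.

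The other high members belong to the multi-synthetase complex. Mars, the methionine enzyme, which also charges the initiator tRNA, read 4.55, 9.54, 6.45 and 9.95 on the vehicle, 4-OHT, vitamin E and lutein arrays, a log2 difference of 1.07 for 4-OHT. Its vitamin E array was 0.50 above vehicle, farther than in any other gene of the set. Eprs, 1 protein that charges both glutamate and proline tRNA, read 1.90, 3.98, 1.97 and 3.43, a difference of 1.06. Lars, the leucine enzyme, read 6.08, 12.1, 6.51 and 11.1, a difference of 1.00 that was just below 2-fold before rounding. Iars, the isoleucine enzyme, read 11.98, 20.2, 12.4 and 21.8, a difference of 0.76.

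The other 9 cytosolic genes lay between -0.61 and 0.15, with a median of -0.15. Between Nars at 0.65 and Wars at 0.15 was the widest gap in the ordered cytosolic differences, 0.49 wide, against 0.34 for the next widest. This division was drawn after the values were seen and describes them only. Under each of the 8 other settings of scaling, background, probe choice and filter that were run, the lowest of the 11 higher genes stayed above the highest of the other 9. Most of these settings could not change this order. Scaling by a single number per array shifts all genes alike, and the cytosolic genes were well above background on every array. Where the order could change, these values were 0.71 and 0.32 with quantile normalization, 0.59 and 0.12 with normexp correction, and 0.65 and 0.04 with the mean of probes.

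Qars, the glutamine enzyme of the complex, read 23.4, 15.3, 21.7 and 18.3 on the vehicle, 4-OHT, vitamin E and lutein arrays, a log2 difference of -0.61, the lowest of the cytosolic genes. Vehicle was the highest array for Qars and 4-OHT the lowest. Kars, the lysine enzyme of both compartments, read 17.8, 14.7, 17.7 and 17.1, a difference of -0.27. Hars, the histidine enzyme, differed by -0.26, which like that of Kars was within 2 spot SDs. Dars for aspartate (-0.15), Farsa and Farsb for the subunits of the phenylalanine enzyme (-0.15 and 0.04), Rars for arginine (-0.11), Vars for valine (0.04) and Wars for tryptophan (0.15) were also within 2 spot SDs. A dimmer second probe for Farsa gave -0.20, and one for Wars gave -0.07.

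**Figure D2:**
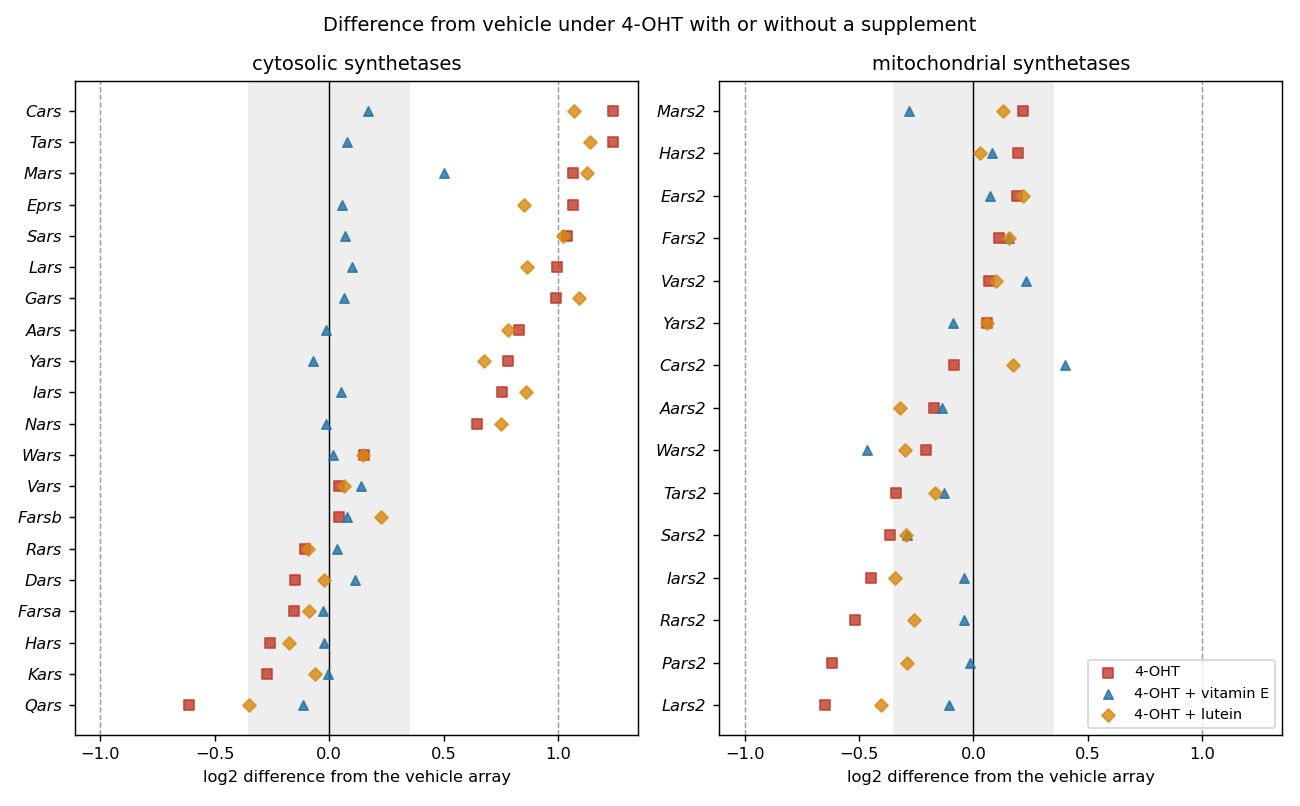
Log2 difference of each synthetase gene from the vehicle array for 4-OHT alone, with vitamin E and with lutein, 1 point per array. Dashed lines mark 2-fold, and a grey band around 0 marks 2 spot SDs of 4-OHT against vehicle, used for all points. Iars2 with lutein (-0.345) lies inside this band, though beyond 2 spot SDs of its own comparison (0.340). In the cytosolic panel 11 genes from Cars to Nars lie right of the band with 4-OHT and with lutein, whereas with vitamin E 10 of them lie inside it and Mars lies outside at 0.50.

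Place in the complex did not follow the division. Of the 8 enzymes of the complex 4 were in the higher set (Eprs, Iars, Lars and Mars) and 4 were not (Dars, Kars, Qars and Rars), with a median of 0.32, and the 12 enzymes outside it had a median of 0.71 with 7 in the higher set. Of the scaffold genes, Aimp1 and Aimp2 lay near vehicle, with log2 differences of -0.09 and 0.03. Eef1e1, which encodes AIMP3, differed by -0.37 and was lower by more than 2 spot SDs, as were 27.2% of all genes. The structural class of the enzyme did not follow it either, with 5 of 9 class I genes and 5 of 10 class II genes in the higher set, and Eprs holding a domain of each class. Of 11 cytosolic synthetase genes that were listed here as reported ATF4 targets 10 were in the higher set, with Wars as the exception, and Lars was in the higher set without being on the list. That list was drawn up with earlier results of these data known, so the overlap is no independent evidence.

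Among the 15 mitochondrial genes measured 0 were 2-fold higher or lower with 4-OHT, where 7.74% and 3.17% of all genes were. At 1.5-fold, 2 of 15 were lower (Lars2 and Pars2), a share near the 13.5% of all genes. Lars2, the mitochondrial leucine enzyme, read 4.47, 2.85, 4.16 and 3.38 on the vehicle, 4-OHT, vitamin E and lutein arrays, a log2 difference of -0.65. Pars2, the mitochondrial proline enzyme, read 2.60, 1.69, 2.57 and 2.12, a difference of -0.62. For both, 4-OHT was the lowest array and lutein stood between 4-OHT and the other pair.

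Rars2, the mitochondrial arginine enzyme, had the same order at 11.8, 8.27, 11.5 and 9.89, a log2 difference of -0.52. Iars2 (isoleucine) read 1.07, 0.786, 1.04 and 0.844, a difference of -0.45. A second Iars2 probe gave -0.09, so its size depended on the probe. Sars2 (serine) read 1.54, 1.19, 1.26 and 1.25, a difference of -0.37, with vehicle alone high. These 5 genes were lower by more than 2 spot SDs and 0 mitochondrial genes were higher by as much, against 27.2% and 23.0% of all genes.

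The remaining 10 mitochondrial genes lay within 2 spot SDs of vehicle. Tars2 (threonine) differed by -0.34, Wars2 (tryptophan) by -0.21, Aars2 (alanine) by -0.17 and Cars2 (cysteine) by -0.09. Yars2 (tyrosine) differed by 0.06, Vars2 (valine) by 0.07, Fars2 (phenylalanine) by 0.11, and Ears2 (glutamate) and Hars2 (histidine) by 0.19 each. Mars2, the mitochondrial methionine enzyme, was close to background at 0.0669, 0.0778, 0.0550 and 0.0731, with a difference of 0.22, and its vitamin E spot was not well above background. Second probes differed in sign from the brightest for Cars2 (0.54), Wars2 (0.18) and Vars2 (-0.18), whereas that for Tars2 gave -0.23.

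**Figure D3:**
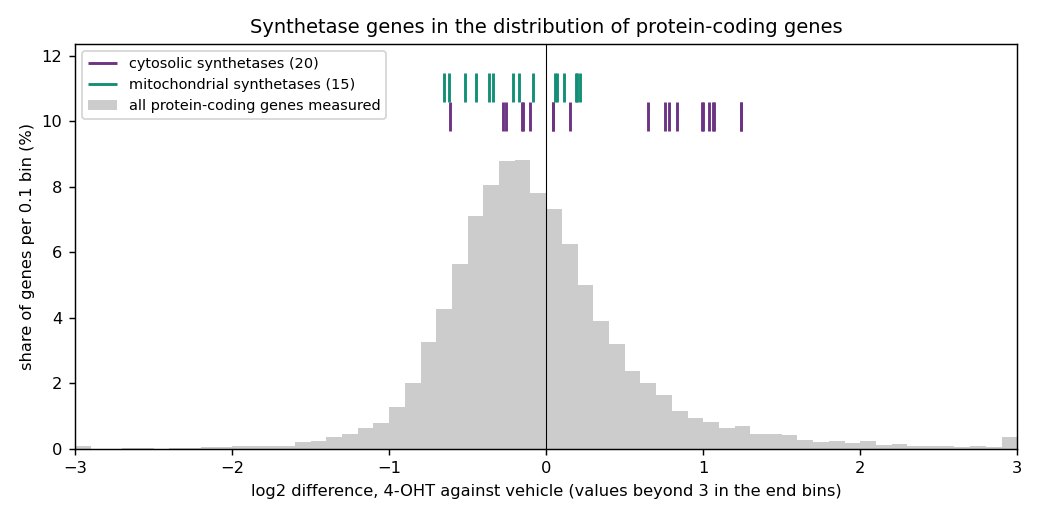
Share of protein-coding genes measured, in percent per bin of 0.1, by log2 difference between 4-OHT and vehicle, with 1 vertical tick per synthetase gene above the histogram. Of the 20 cytosolic ticks 11 stand on the right shoulder between 0.65 and 1.24, and the 15 mitochondrial ticks spread from -0.65 to 0.22 over the body of the histogram.

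Setting each cytosolic gene beside the mitochondrial gene of the same amino acid gave 16 pairs with both measured, in which Eprs and Fars2 each appear 2 times. The cytosolic gene had the larger difference in 12 of 16 pairs for 4-OHT against vehicle, by more than 1 on the log2 scale in 7. The gap was widest for proline, with Eprs 1.68 above Pars2, then for leucine, with Lars 1.65 above Lars2, and for threonine, with Tars 1.58 above Tars2. It ran the other way for valine, for both phenylalanine subunits and for histidine, where the gap between Hars and Hars2 was -0.45. Hars and Hars2 are neighbours in the RefSeq table, with annotated ends that overlap by 4 bases.

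**Figure D4:**
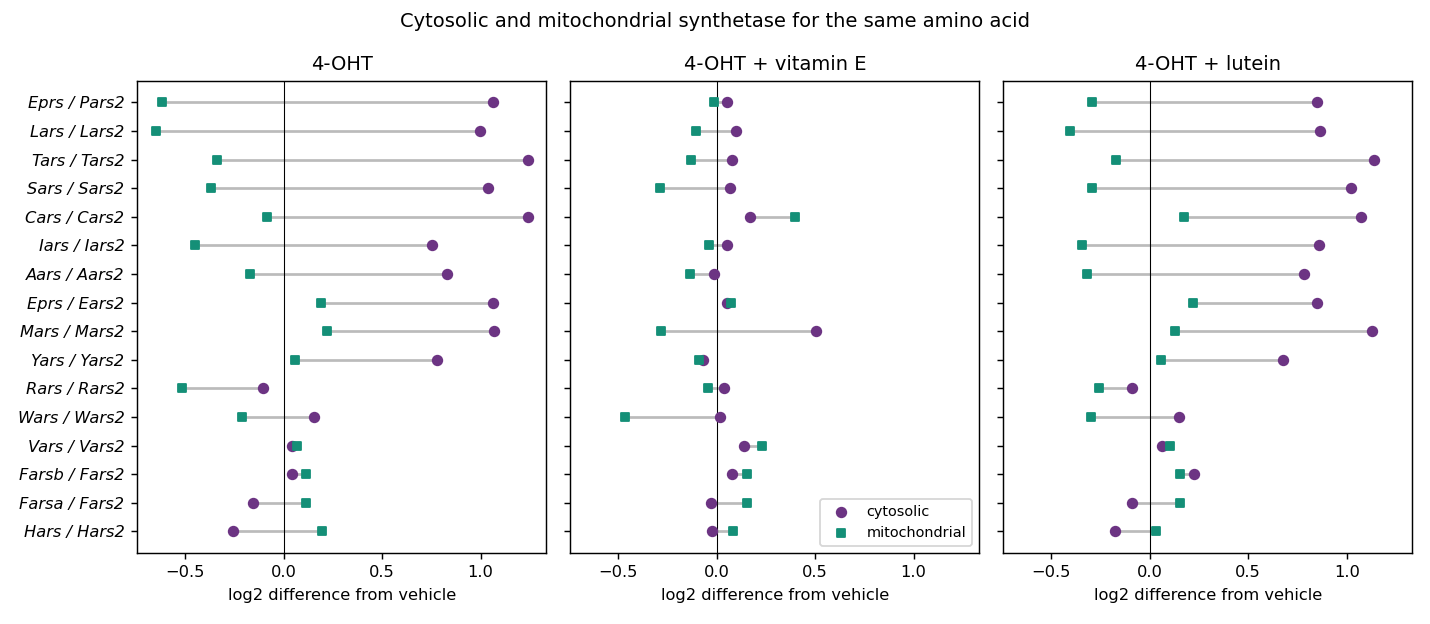
Log2 difference from vehicle of the cytosolic (circle) and mitochondrial (square) gene of each of 16 pairs, ordered by the gap with 4-OHT, in 1 panel per treated array. With 4-OHT and with lutein the circles of 10 pairs lie well right of the squares, and with vitamin E the largest remaining gap is that of Mars and Mars2 at 0.79.

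The array with vitamin E added to 4-OHT asked how the synthetases stood when the antioxidant accompanied the drug. Here 11 of 20 cytosolic genes were lower than on the 4-OHT array by more than 2 spot SDs, where 23.4% of all genes were, and they were the same 11 that were higher with 4-OHT. Both comparisons use the 4-OHT array, so they are not independent, and the level on the vitamin E array is given beside vehicle below. Tars differed by -1.16, Cars by -1.07 and Eprs by -1.01 between vitamin E and 4-OHT, the 3 genes at least 2-fold lower, where 8.8% of all genes were. At 1.5-fold 10 of 20 were lower, against 15.6% of all genes, and 0 were higher, against 8.55%. Mars had the smallest difference of the 11, -0.56. Qars was higher with vitamin E by 0.50.

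Against vehicle, the vitamin E array was close for nearly the whole cytosolic set. Its median over the 20 genes was 0.05, and 0 genes were past 2-fold, where 1.09% of all genes were higher and 2.01% lower, or past 1.5-fold, where 4.4% were higher and 6.65% lower. Mars was the exception, at 0.50 above vehicle, and the other 19 lay between -0.11 (Qars) and 0.17 (Cars). In all 11 genes of the higher set the vitamin E array was nearer to vehicle than to 4-OHT.

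Mitochondrial genes had a median of 0.08 for vitamin E with 4-OHT against 4-OHT, equal to the 0.08 of all genes at this rounding and below the 0.17 of protein-coding genes. Pars2, at 0.60, was the 1 gene past 1.5-fold, where 8.55% of all genes were higher and 15.6% lower. Lars2 (0.54), Cars2 (0.48), Rars2 (0.47) and Iars2 (0.41) were also higher by more than 2 spot SDs, as were 27.3% of all genes. The second probes of Cars2 and Iars2 had the opposite sign here, at -0.37 and -0.08. Mars2 lay at -0.50, an uncertain value, since its vitamin E spot was not well above background. Against vehicle, 0 mitochondrial genes passed 1.5-fold on the vitamin E array, where 4.4% of all genes were higher and 6.65% lower. Cars2 differed from vehicle by 0.40 and Wars2 by -0.47, and the others lay within 2 spot SDs. A dimmer second Wars2 probe went the other way, at 0.104 with vehicle and 0.117 with vitamin E.

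The array with lutein added to 4-OHT asked the same of the carotenoid. It stayed near the 4-OHT array for the synthetases. Of the 20 cytosolic genes 0 were past 2-fold or 1.5-fold between lutein with 4-OHT and 4-OHT, where 1.19% and 3.82% of all genes were 2-fold higher and lower, and 3.91% and 9.13% at 1.5-fold. The cytosolic differences ran from -0.21 (Eprs) to 0.26 (Qars), all within 2 spot SDs, with a median of 0.04. The mitochondrial median was 0.04 as well. Pars2 at 0.33 was the only gene of the 15 beyond 2 spot SDs, where 15.8% of all genes were higher and 16.0% lower. A second Cars2 probe gave -0.49, beyond 2 spot SDs, where the brightest gave 0.26. A second Iars2 probe gave -0.30, where the brightest gave 0.10.

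Against vehicle, lutein with 4-OHT gave a cytosolic median of 0.71 and a mitochondrial median of -0.17. Tars (1.14), Mars (1.13), Gars (1.09), Cars (1.07) and Sars (1.02) were at least 2-fold higher, 5 of 20 where 3.45% of all genes were, and 11 of 20 were 1.5-fold higher, where 9.23% were. At 1.5-fold 0 were lower, where 5.83% of all genes were. The 11 were the set named above, from Cars to Nars, and for each of them the lutein array was nearer to 4-OHT than to vehicle. This comparison and that of 4-OHT share the vehicle array, on which the set was partly drawn, so they are not independent. The lowest of the set was Yars at 0.68. Qars (-0.35), Lars2 (-0.41) and Iars2 (-0.35) were lower than vehicle by more than 2 spot SDs, as were 16.7% of all genes.

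Vitamin E and lutein, both added to the same dose of 4-OHT, differed from each other in the same genes. Their own doses were 400 µM and 200 nM, so the comparison is not one of matched doses. With vitamin E 11 of 20 cytosolic genes were at least 1.5-fold lower than with lutein, where 8.93% of all genes were, and 2 (Tars at -1.06 and Gars at -1.03) were at least 2-fold lower, where 3.69% were. At 1.5-fold 0 were higher, where 2.21% were. The difference between these arrays was -0.62 for Mars and -0.75 for Yars. The cytosolic median was -0.69, the mitochondrial median 0.05, and 0 mitochondrial genes passed 1.5-fold. All 11 genes of the higher set kept their sign in this comparison, and in those of 4-OHT, vitamin E with 4-OHT against 4-OHT and lutein with 4-OHT against vehicle, under all 9 settings. Signs within the lutein and 4-OHT comparison were not stable, with 4 of these 11 keeping theirs.

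Promoter sequence was searched for the 8-letter core of the C/EBP-ATF response element, TGATGNAA, which ATF4 is known to bind with C/EBP partners. The windows ran from 250 bases before to 50 bases after a gene's start in RefSeq on the GRCm38.p6 build, both strands were read, and the motif was chosen with the values known. Windows of 12 of 20 cytosolic and 14 of 16 mitochondrial genes were used. The letters were in 4 of 12 cytosolic windows (33.3%) and 0 of 14 mitochondrial windows, against 3.97% of 32851 windows in the table. The 4 genes, Gars, Iars, Tars and Yars, are all in the higher set, but so were most of the cytosolic genes with a window used. The others with a window were Eprs, Mars and Sars of that set, and Dars, Farsa, Farsb, Kars and Qars outside it. Whether the letters go with the set was not tested. The 4 stretches are shown 5′ to 3′ with the match in capitals, on the strand on which it reads TGATGNAA. They are shown because these genes have the match in common.
Gars: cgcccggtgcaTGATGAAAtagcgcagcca
Iars: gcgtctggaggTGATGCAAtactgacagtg
Tars: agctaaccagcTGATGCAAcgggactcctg
Yars: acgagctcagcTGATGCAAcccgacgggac

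The Gars window lies at chr6:55037960-55037989 on the minus strand, with the match starting at position -30 from the gene's start, and the Tars window at chr15:11399655-11399684 on the plus strand, at position -15. In Iars, at chr13:49682126-49682155 on the minus strand, and Yars, at chr4:129189895-129189924 on the plus strand, the match starts at positions 8 and 4, past the start. The match of Gars reads TGATGAAA and those of the other genes read TGATGCAA. Mars, Eprs and Sars, also in the higher set, held no match in this window, which says only that these letters are not there.

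The promoter of Tars, with the highest difference among the genes with a match, is given for the 250 bases before its start, chr15:11399659-11399908 on the minus strand, 5′ to 3′ in the direction of the gene, with the match on the opposite strand in capitals.
Tars: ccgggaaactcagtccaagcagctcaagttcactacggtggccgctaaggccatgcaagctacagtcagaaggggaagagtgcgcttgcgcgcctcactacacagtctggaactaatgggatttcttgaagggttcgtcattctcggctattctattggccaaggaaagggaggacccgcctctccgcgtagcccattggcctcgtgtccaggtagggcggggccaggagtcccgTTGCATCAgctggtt

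The motif of NRF1, a factor known for nuclear genes of mitochondrial proteins, was in the windows of Farsb, Kars and Tars (3 of 12) and of Iars2 and Mars2 (2 of 14), against 4.60% of all windows. Tars holds both motifs, and these matches do not overlap.

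Genes next to the synthetases in the pathway were read from lists that were also drawn up with earlier results known. Of 14 genes for tRNA processing and export 1 was 2-fold higher with 4-OHT, a share near the 7.74% of all genes, and their median was -0.16. That gene was Xpot, the export receptor that carries tRNA out of the nucleus, at 3.27, 7.43, 3.58 and 6.52 on the vehicle, 4-OHT, vitamin E and lutein arrays, a log2 difference of 1.18. Its order over the 4 arrays was that of Tars and Cars. Trmt1, a tRNA guanine methyltransferase, differed by 0.64, and Tsen15, a subunit of the tRNA splicing endonuclease, and Trmt5, a tRNA methyltransferase, by -0.62 and -0.60.

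The 10 genes for other steps of charging, such as the enzymes that make glutamine tRNA in mitochondria and those that edit or complete charged tRNA, were all below 0 with 4-OHT, where 54.9% of all genes were, with a median of -0.47. While 0 were 2-fold lower, where 3.17% of all genes were, 4 were 1.5-fold lower, where 13.5% were. They were Dtd1, which removes D-amino acids from tRNA (-0.85), Qrsl1 and Gatb, subunits of the mitochondrial glutamine amidotransferase (-0.78 and -0.71), and Pstk, a kinase on the way to selenocysteine tRNA (-0.63).

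The factors that use the charged tRNA were mixed. The 7 cytosolic elongation genes had a median of 0.07 with 0 past 1.5-fold, where 15.1% of all genes were higher and 13.5% lower. The largest were Eef2 at 0.37 and Eef1a1 at 0.22. Of 17 initiation genes 16 were measured, with a median of -0.16, and 2 were at least 1.5-fold higher, a share near the 15.1% of all genes. Those were Eif1, a factor for start codon choice (144, 254, 162 and 245, a difference of 0.82), and Eif2s2, the beta subunit of eIF2 (20.6, 35.4, 20.6 and 35.0, a difference of 0.78). Both were high with 4-OHT and with lutein and low on the other arrays.

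On the mitochondrial side, 76 of 77 ribosomal protein genes were measured, and 73 of 76 were below 0 with 4-OHT, where 54.9% of all genes and 60.5% of protein-coding genes were, with a median of -0.45. Of the 76, 0 were past 2-fold, where 7.74% of all genes were higher and 3.17% lower. At 1.5-fold 19 were lower, where 13.5% of all genes were, led by Mrpl18 (-0.95) and Mrpl51 (-0.84). The 9 mitochondrial translation factors had a median of -0.42. Of them 3 were at least 1.5-fold lower, where 13.5% of all genes were, among them Mtif3 (-0.97). Mtif2, the mitochondrial initiation factor that delivers the first tRNA, was 2-fold higher and read 48.9, 102, 42.8 and 54.3, so that 4-OHT alone was high. The mitochondrial synthetases' median of -0.17 lay between those of the mitochondrial ribosomal genes and all genes.

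Genes of the integrated stress response were higher by more than the synthetases. With 4-OHT 22 of 25 were at least 2-fold higher, where 7.74% of all genes were, with a median of 2.32. With vitamin E added 22 were at least 2-fold lower than with 4-OHT, where 8.8% of all genes were, with a median of -1.99. With lutein added 0 were past 2-fold against 4-OHT, where 1.19% of all genes were higher and 3.82% lower. The median was -0.17. Atf3, a stress-induced transcription factor, read 1.37, 28.4, 2.40 and 20.3 on the vehicle, 4-OHT, vitamin E and lutein arrays, a difference of 4.38. Nupr1 (4.32), Gdf15 (3.95) and the amino acid transporter Slc7a3 (3.55) followed. Atf4 itself read 297, 452, 310 and 461 in the same order, a difference of 0.61, which was below 2-fold. Of the 4 kinases of eIF2, Eif2ak3, which encodes PERK, the kinase of endoplasmic reticulum stress, was 2-fold higher at 3.26, 7.11, 3.34 and 6.53, a difference of 1.12. Eif2ak4, the kinase that responds to uncharged tRNA, differed by 0.08, Eif2ak1 by -0.47 and Eif2ak2 by -0.42.

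**Figure D5:**
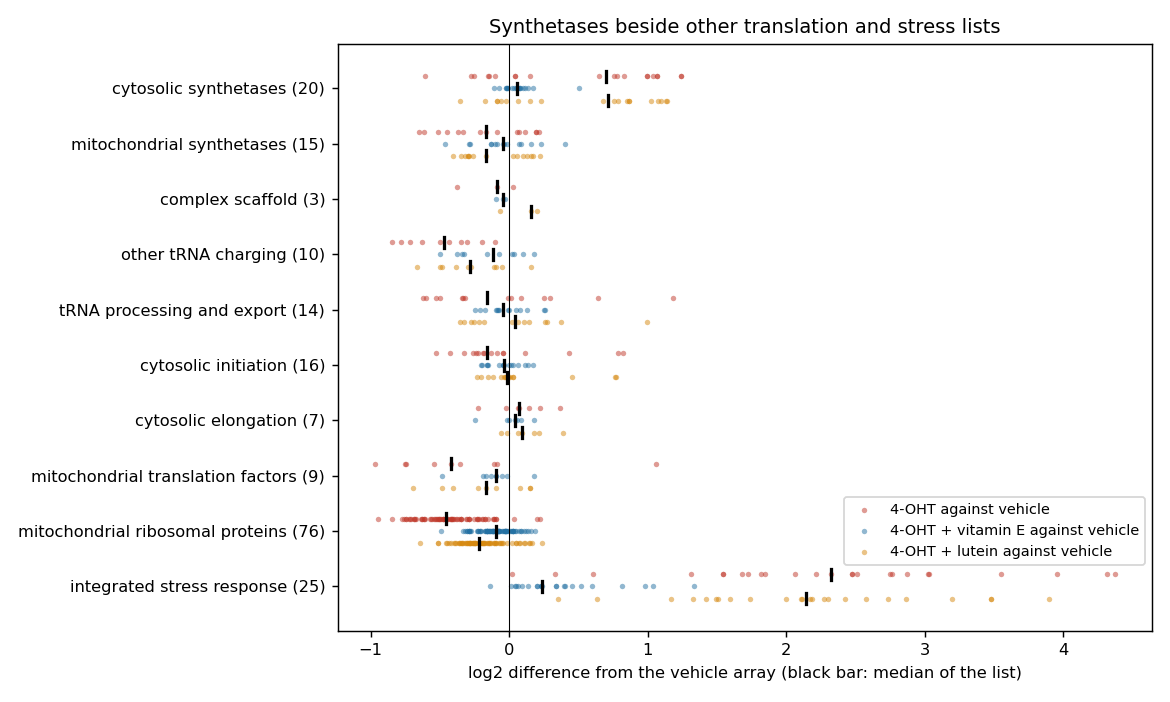
Log2 difference from vehicle of each gene of the synthetase groups and of 8 other lists (rows, with the number measured for 4-OHT), for 4-OHT, 4-OHT with vitamin E and 4-OHT with lutein, 1 point per gene and a black bar at the list's median. The cytosolic synthetases and the stress response genes stand right of 0 with 4-OHT (medians 0.70 and 2.32) and with lutein (0.71 and 2.14), and mitochondrial ribosomal genes stand left of 0 with 4-OHT (-0.45).

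Cell type markers differed between the arrays beside these results. The 8 rod markers, all measured on each array, had a summed signal of 1113 with vehicle, 513 with 4-OHT, 878 with vitamin E and 661 with lutein, so the vehicle and vitamin E arrays, low in the higher synthetase set, were the 2 with more rod signal. The 7 measured cone markers summed to 120, 181, 201 and 192, nearly all of it from Gngt2 (117, 177, 197 and 189). With 4-OHT 5 of the 7 lay above vehicle, and Gnat2 (-1.30) and Pde6h (-0.52) lay below. The 6 Müller glia markers summed to 65.3, 71.0, 74.0 and 79.8, but 4 of 6 were below vehicle with 4-OHT, with a median of -0.23, and the sum was raised by Vim, at a log2 difference of 0.89. The 4 measured pigment epithelium markers of 6 summed to 2.87, 11.5, 8.52 and 10.4, mostly from Dct, at a log2 difference of 2.43 with 4-OHT, while Mitf (-0.12) and Pmel (-0.30) were below vehicle with 4-OHT and the median was 0.12. On none of the arrays were the defining genes Rpe65 and Best1 well above background. Of the microglia genes 1 of 4 was measured, of the mesenchyme and vessel genes 3 of 5 and of the pluripotency genes 2 of 3. Not well above background on any array were Aif1, Cx3cr1 and P2ry12 (microglia), Col3a1 and Cdh5 (mesenchyme and vessel) and Pou5f1 (pluripotency). The 2 measured pluripotency genes summed to 2.80, 1.85, 2.09 and 1.81. Bipolar, amacrine and horizontal, ganglion and progenitor markers had median log2 differences of -0.44, -0.33, -0.21 and 0.29 with 4-OHT. In such pooled tissue, fewer cells of a type and less RNA per cell cannot be told apart, and the part of cell makeup in the synthetase differences was not tested.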

How the data were processed

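RNA (50 ng per sample, per the labels) was labelled with Cy3 and hybridised to 1-colour Agilent mouse arrays read, per the submitters' processing notes, with Feature Extraction 10.7.3.1. The deposited intensity of each spot is background-subtracted and not normalized between arrays, per the file headers, and all 4 arrays share a slide and a scan. The authors' value table holds linear intensity divided by 1 number per array, found by comparison with the scanner values (in the order vehicle, 4-OHT, vitamin E, lutein the divisors were 494.2, 434.1, 468.9 and 479.2 and the column medians 0.0794, 0.0949, 0.0736 and 0.0847). The lutein file was saved at 3 significant digits with 57 altered gene names, so names came from the vehicle array.

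Control spots and outlier spots were left out, log2 intensity was centred on each array's 75th percentile of gene spots, spots of a probe were averaged, and the brightest probe over the 4 arrays stood for a gene. A gene entered a comparison if well above background on either array. A dim value was set to the array's lowest signal well above background, or to its own if higher. Limits of 2-fold and 1.5-fold were fixed sizes with no test, and the number of arrays, 1 per group, limits the precision. The members and lists were chosen with earlier results of these data known. All members were named, and of other lists mostly the 4 genes with the largest absolute difference for 4-OHT against vehicle or fewer. Atf4 was named in addition. Alternatives were median, quantile and spike-in scaling (7 of 10 spike-in probes), normexp background correction with offset 50, the mean of probes, other filters and the authors' table. Python 3.11.15, R 4.3.3 and limma 3.58.1 were used, and the steps were tested on simulated data. Promoter windows came from RefSeq on GRCm38.p6. The window of 1 cytosolic gene is not reported here.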

Additional observations from a re-analysis of the deposited data

How the results depend on the processing

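No paired analysis was possible because a group was a single array, and none could be left out. The contrast between the cytosolic and mitochondrial medians kept its direction in 5 of the 6 comparisons under the alternatives run. The exception was lutein with 4-OHT against 4-OHT, where it was -0.00 and became 0.04 with the mean of probes. Scaling by 1 number per array shifts both medians alike and could not change the contrast. Counts of cytosolic genes past the limit moved more. For 4-OHT against vehicle the 5 became 2 with spike-in scaling, 12 at 1.5-fold in either direction and 0 at 4-fold. The count rose above 5 with quantile normalization and with the authors' table, where the median of the 11 higher genes was 1.145 and 1.002. For vitamin E with 4-OHT against 4-OHT the 3 became 5 with quantile normalization, 0 with spike-in scaling, 10 at 1.5-fold and 0 at 4-fold, and spike-in scaling moved the cytosolic median from -0.61 to -0.40 and the mitochondrial median from 0.08 to 0.29. For lutein with 4-OHT against vehicle the 5 became 11 at 1.5-fold, 0 at 4-fold and 4 without Gars and Kars. Sars fell just below 2-fold there, at 0.99, in its lowest setting. For vitamin E against lutein the 2 became 0 with spike-in scaling, 1 with normexp correction, 11 at 1.5-fold, 0 at 4-fold and 1 without Gars and Kars. The fold limits act by construction. The cause of the other changes was not tested beyond the shift of all genes under spike-in scaling. Quantile normalization put 30.8% of 2-fold genes higher for vitamin E with 4-OHT against 4-OHT. Spot signal limits Nars2, not well above background on any array, and Mars2, whose vitamin E spot was not.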
